A study of Caenorhabditis elegans with 18 samples.

Results

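The 7 genes described here were fbf-1, fbf-2, gld-1, daz-1, cpb-3, puf-5 and glp-1 of the nematode Caenorhabditis elegans, genes known for the control of germline stem cells and of oogenesis. They were chosen by name, by matching WormBase symbols to gene identifiers, and all 7 were found among the 20134 genes of a deposited table of small RNA read counts, which held 75393 features in all. These genes, and the lists and markers used below, were chosen with earlier results of these data known. Counts of them called, set beside the share of all features, are therefore descriptions. All 7 passed the filter on low counts. In that filter, 11648 features were kept, of which 9869 were genes. The values are numbers of small RNA reads counted under each gene, many of which in such libraries are antisense to the messenger RNA. A value is therefore not a level of messenger RNA. The setting for strand is not given in the sources used here, so reads from the gene's own strand and from the opposite strand could not be told apart.

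In the C. elegans gonad, stem cells are kept dividing by Notch signalling and leave the stem cell pool for meiosis when a network of translational regulators changes state. FBF-1 and FBF-2 are near-identical PUF-family proteins that repress target messenger RNAs in the stem cell region, gld-1 among them. GLD-1, a KH-domain translational repressor, promotes entry into meiosis and is needed for oogenesis. DAZ-1, a homologue of the human DAZ proteins, and CPB-3, a homologue of the cytoplasmic polyadenylation element binding proteins (CPEB), act in oogenesis. PUF-5 is a PUF-family repressor of the late oocyte. The gene glp-1 encodes the Notch receptor of germline stem cells and no RNA-binding protein, and its messenger RNA is a target of both GLD-1 and PUF-5. Small RNAs with a 5′ triphosphate, made on germline messenger RNAs by RNA-dependent RNA polymerases, are bound by worm-specific Argonautes (WAGOs), of which WAGO-1 and WAGO-3 were tagged here.

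The libraries were made from whole animals of the last larval stage (L4) kept at 15 °C. Each of the 3 genotypes, 1xFLAG::WAGO-1, 1xFLAG::WAGO-1 dpf-3{delta} and 1xFLAG::WAGO-3, gave 3 immunoprecipitates (IPs) and 3 inputs, labelled A, B and C, or 18 libraries in 6 groups. All groups carry a FLAG-tagged Argonaute, no IP of untagged animals was analysed here, and dpf-3, which encodes a protease of the dipeptidyl peptidase family, was intact in the WAGO-1 and WAGO-3 animals. The WAGO-1 groups with the deletion are called the deletion IP and the deletion input below. Per the labels, only inputs went through an enrichment of small RNA before library preparation, so a difference between an IP and its input cannot be told apart from that step. Nothing says that A, B and C came from separate cultures, so p-values measure the spread between these libraries, which may be technical.

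Counts assigned to features ran from 2206087 to 5649896 in the IPs and from 88761 to 517278 in the inputs, so input values carry more counting error. The 7 genes together held 1402, 7281 and 1772 reads in the 3 libraries of the WAGO-1 IP, the deletion IP and the WAGO-3 IP, and 484, 328 and 377 in the matching inputs. Reads counted under dpf-3 summed to 39 in the WAGO-1 input and 6 in the deletion input, and to 30 in the WAGO-1 IP and 51 in the deletion IP. These sums are not scaled for depth. The WAGO-1 inputs held 209731 to 517278 counts and the deletion inputs 88761 to 121874. Of the marker genes, all 10 of the germ line, all 11 of spermatogenesis and 6 of 7 of neurons passed the filter. So did 4 of 7 of the intestine, 2 of 6 of muscle and 0 of 5 of the epidermis. Levels are given as counts per 1000000 (CPM) of a library scaled by edgeR's trimmed mean of M values (TMM), whose factors spanned 0.431 to 2.39. Scaling by total counts instead shifts the median log2 fold of all features by up to -1.63 in IPs against inputs and by 1.12 between the WAGO-1 IPs, so the total-count value stands beside each fold whose direction or call it changes.

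By position, 4 of the genes lie on chromosome II, 2 on chromosome I and glp-1 on chromosome III (RefSeq gene spans on WBcel235, the assembly also named ce11). The span of fbf-1 (WBGene00001401) is II:6078263-6080843 and that of fbf-2 (WBGene00001402) is II:6088863-6091480, with 8019 bases between them. The span of daz-1 (WBGene00000935) is II:5456305-5458609 and that of puf-5 (WBGene00004241) is II:8575541-8577787. On chromosome I, gld-1 (WBGene00001595) spans 7695681 to 7698222 and cpb-3 (WBGene00000772) spans 5788634 to 5791752. The span of glp-1 (WBGene00001609), III:9092241-9099698, is the longest, at 7458 bases against 2247 to 3119 for the other 6. Neighbours overlapped only at the ends of fbf-1 (15 bases of H12I13.6) and glp-1 (18 bases of ZK507.1). Reads of fbf-1 and fbf-2 may be split between them where their sequences are alike, so their separate values are uncertain.

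In the WAGO-1 IP, reads of 5 of the genes were scarce and those of puf-5 were abundant. The WAGO-1 IP was the lowest of the 6 groups for fbf-1, fbf-2, gld-1, daz-1 and cpb-3, with no overlap with the next group, and on the TMM scale the highest for puf-5. The share of all features with such an order and no overlap was not counted. With total counts, puf-5 in the WAGO-1 IP (37.3 ± 2.97 CPM) stood below the deletion IP (57.1), the WAGO-3 input (51.3) and the deletion input (46.1). On the TMM scale, for glp-1 the WAGO-3 IP was the highest, at 104.2, 103.3 and 106.6 CPM, with no overlap with the deletion IP, the next in order. With total counts it was the second lowest mean for glp-1, at 45.5 ± 1.44 CPM, against 106.0 in the deletion input and 27.7 in the WAGO-1 IP. Between genotypes, fewer germ cells and fewer small RNAs per cell cannot be told apart in these extracts of whole animals.

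**Figure D1:**
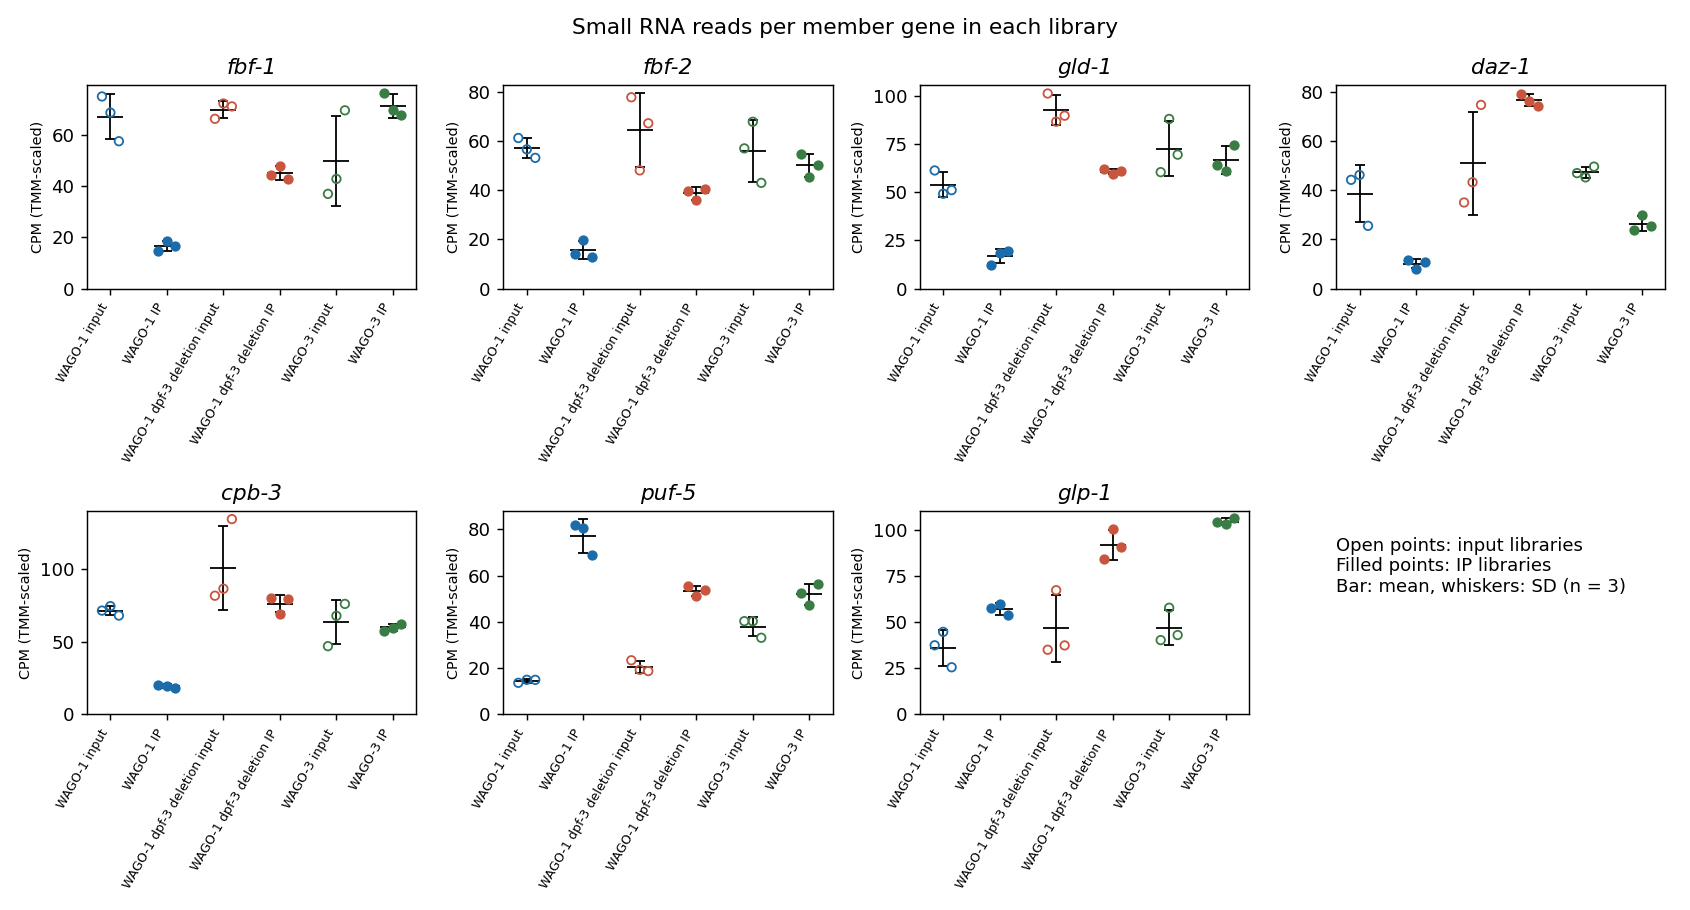
Small RNA reads of each gene (CPM, TMM-scaled, vertical axis) in the 18 libraries, by group; open points are inputs, filled points are IPs, bars are means and whiskers are SD (n = 3). The 3 WAGO-1 IP libraries lie below all others for fbf-1, fbf-2, gld-1, daz-1 and cpb-3 and above all others for puf-5 on this scale.

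In the WAGO-1 IP set against its input, the stem cell repressors stood low. For fbf-1 the counts were 20, 48 and 44 in the IP and 22, 46 and 27 in the much smaller inputs, or 14.7, 18.5 and 16.7 CPM against 75.0, 68.7 and 57.5 CPM. Its log2 fold was -1.96 ± 0.22 (SE; edgeR adjusted p = 2.15e-14), a level 3.89-fold lower. For fbf-2 the levels were 13.9, 19.7 and 12.9 CPM against 61.3, 56.7 and 53.2 CPM, with a log2 fold of -1.84 ± 0.24 (edgeR adjusted p = 1.01e-11). In both genes every IP library lay below every input library, which was not counted for all features.

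The genes gld-1, daz-1 and cpb-3 showed the same order of groups. The level of gld-1 was 12.5, 18.5 and 19.4 CPM in the IP and 61.3, 49.3 and 51.1 CPM in the input, with a log2 fold of -1.58 ± 0.23 (edgeR adjusted p = 1.72e-09). The level of daz-1 was 11.7, 8.11 and 10.6 CPM against 44.3, 46.3 and 25.6 CPM (log2 fold -1.97 ± 0.28, edgeR adjusted p = 7.57e-10). That of cpb-3 was 20.5, 19.7 and 18.2 CPM against 71.6, 74.6 and 68.2 CPM (log2 fold -1.89 ± 0.21, edgeR adjusted p = 1.70e-14). IP and input did not overlap for any of these 3 genes, and the share of all features without overlap was not counted.

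For puf-5 the order was opposite. The IPs held 112, 209 and 181 puf-5 reads and the inputs 4, 10 and 7, which came to 82.1, 80.7 and 68.7 CPM against 13.6, 14.9 and 14.9 CPM. Its log2 fold was 2.38 ± 0.25 (edgeR adjusted p = 2.12e-15), a level 5.20-fold higher, and 0.93 with total counts (adjusted p = 0.00361). The direction for puf-5 was the same under both scalings. The receptor gene glp-1 stood at 57.9, 59.9 and 53.9 CPM in the IP and 37.5, 44.8 and 25.6 CPM in the input, a log2 fold of 0.63 ± 0.21 (edgeR adjusted p = 0.00634) that turned to -0.82 with total counts (adjusted p = 0.00158). Without 1 of the WAGO-1 IP libraries the fold of glp-1 was 0.13 (without A), 0.11 (without B) or 0.19 (without C), without WAGO-1 input C it was 0.41, and none of these was called.

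In counts, 5 of the 7 genes were called lower by edgeR's test at an adjusted p of 0.05, against 24.9% of all features tested, and 2 higher, against 43.2%. With total counts, 6 were lower (48.9% of all features) and puf-5 alone was higher (12.2%). The median log2 fold of the 7 was -1.84 and that of all features was 0.52. Relative to that median, the 5 lower genes lay between -2.49 and -2.09, while puf-5 lay at 1.86 and glp-1 at 0.11. Other lists also leaned lower here: of the 10 germline markers 5 were lower and 1 higher (9 and 0 with total counts; median log2 fold -0.95), and of 77 genes for cytosolic ribosomal proteins 32 were lower and 8 higher (63 and 0; median -0.96).

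The deletion IP was next set against the WAGO-1 IP, a comparison in which no library had the enrichment step. Of the 7 genes, daz-1 had the highest log2 fold. The WAGO-1 IPs held 16, 21 and 28 daz-1 reads and the deletion IPs 469, 356 and 437, which came to 11.7, 8.11 and 10.6 CPM against 79.4, 76.5 and 74.5 CPM. The log2 fold was 2.95 ± 0.16 (edgeR adjusted p = 2.82e-37), larger than that of 99.6% of the features tested. The level of cpb-3 went from 20.5, 19.7 and 18.2 CPM to 80.3, 69.4 and 79.4 CPM, with a log2 fold of 1.98 ± 0.14 (edgeR adjusted p = 2.50e-28). No deletion library overlapped a WAGO-1 IP library in either gene, and the share of all features without overlap was not counted.

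The level of gld-1 rose from 16.8 ± 3.77 to 60.8 ± 1.33 CPM (mean ± SD, n = 3 libraries each), with a log2 fold of 1.79 ± 0.14 (edgeR adjusted p = 1.49e-23). For fbf-1 the libraries went from 14.7, 18.5 and 16.7 CPM to 44.4, 47.9 and 42.8 CPM, and the log2 fold was 1.40 ± 0.15 (edgeR adjusted p = 1.23e-15). For fbf-2 they went from 13.9, 19.7 and 12.9 CPM to 39.6, 35.9 and 40.7 CPM, a log2 fold of 1.30 ± 0.16 (edgeR adjusted p = 6.50e-13). For gld-1, fbf-1 and fbf-2 each deletion IP thus stood higher than any WAGO-1 IP, though how many of all features did so was not counted. For glp-1 the rise was smaller, from 57.9, 59.9 and 53.9 CPM to 84.5, 100.6 and 90.7 CPM (log2 fold 0.68 ± 0.11, edgeR adjusted p = 9.60e-09).

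For puf-5 the direction rests on the scaling. Its TMM-scaled levels were 82.1, 80.7 and 68.7 CPM in the WAGO-1 IP and 55.4, 51.2 and 53.9 CPM in the deletion IP, a log2 fold of -0.51 ± 0.10 (edgeR adjusted p = 6.98e-06), while with total counts the log2 fold was 0.63 (adjusted p = 3.65e-08). Leaving out any 1 WAGO-1 IP library ended the call, with log2 folds of 0.01 (without A, adjusted p = 0.957), 0.00 (without B, 0.978) and -0.12 (without C, 0.317). In these 3 fits fewer features passed the filter and the median log2 fold of all features was 0.64 to 0.65 (0.07 with all libraries), so that puf-5 lay -0.77 to -0.64 from the median, against -0.59 with all libraries.

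In this comparison 6 of the 7 genes were called higher by edgeR, against 30.6% of all features tested, and puf-5 was called lower, against 31.8%. With total counts all 7 were higher, against 69.4%, and none was lower, against 16.9%. The median log2 fold of the 7 was 1.40, beside 0.07 over all features. Genes for cytosolic ribosomal proteins, listed as a sign of messenger RNA fragments, also moved with the deletion: 68 of 77 tested were higher and 1 lower (76 and 1 with total counts), with a median log2 fold of 2.12. Their summed level, over 78 genes with none at 0, was 775 to 1098 CPM in the WAGO-1 IP and 2535 to 3095 CPM in the deletion IP, and 797 to 894 and 1497 to 1769 CPM in the inputs. With total counts it was 382 to 517 and 2742 to 3235 CPM in these IPs, and 1051 to 1206 and 3504 to 3944.5 CPM in the inputs. Of the 10 germline markers, 9 were higher in the deletion IP and none lower, with summed levels of 680 to 1046 against 1540 to 1751 CPM. In the inputs these sums were 702 to 736 CPM (WAGO-1) and 1204 to 1313 CPM (deletion). There 5 markers were called higher and none lower (9 and 0 with total counts), beside 8.65% and 14.9% of all features (29.3% and 10.1%). Their change of enrichment was called higher for 1 and lower for none (4 and 0), beside 1.55% and 0.661% (7.4% and 0.378%), with a median of 0.35. The part of either list in the values of the 7 genes was not tested. Library A stood apart from B and C in both groups (chi-square per degree of freedom 4.20 and 5.85 against 1.41 in the WAGO-1 IP, 3.10 and 2.21 against 1.24 in the deletion IP). Without both A libraries the same 6 genes were called higher, with log2 folds of 1.22 (glp-1) to 3.47 (daz-1), and puf-5 was at -0.0265 and not called (edgeR adjusted p = 0.818). Pairing by letter was not shown for B and C of these IPs. A fit of these groups alone with a replicate block also called 6 higher and puf-5 lower (-0.44, edgeR adjusted p = 7.93e-05).

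In the inputs, the deletion moved few of these genes on the TMM scale. The level of gld-1 was 61.3, 49.3 and 51.1 CPM in the WAGO-1 input and 101.3, 86.7 and 89.8 CPM in the deletion input, a log2 fold of 0.82 ± 0.25 (edgeR adjusted p = 0.00765). The groups did not overlap, but leaving out WAGO-1 input B or C, or deletion input A or C, ended that call (log2 fold 0.70 to 0.79, adjusted p up to 0.109). The other 6 genes had log2 folds of 0.07 (fbf-1) to 0.51 (cpb-3, ± 0.23, edgeR adjusted p = 0.0975) and were not called. Thus 1 of 7 genes was called higher, where 8.65% of all features were, and none lower, where 14.9% were. With total counts all 7 were called higher, with log2 folds from 0.84 to 1.59, against 29.3% of all features higher and 10.1% lower. Besides gld-1, cpb-3 and puf-5 had every deletion input above every WAGO-1 input. How many of all features did so was not counted. Input counts were small, from 4 to 50 reads a gene and library.

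The deletion IP was then set against the deletion input. Of the stem cell repressors, fbf-1 stood at 44.4, 47.9 and 42.8 CPM in the IP and 66.3, 72.2 and 71.1 CPM in the input, with a log2 fold of -0.63 ± 0.23 (edgeR adjusted p = 0.0143). For fbf-2 the log2 fold was -0.75 ± 0.24 (edgeR adjusted p = 0.00568) and for gld-1 it was -0.61 ± 0.20 (edgeR adjusted p = 0.00673). These 3 were called lower in the IP with and without dpf-3 on the TMM scale. With all counted reads as the library size they turned to 0.15, 0.03 and 0.18 and were not called. Each also lost its call without deletion input A or C, and fbf-1 and gld-1 without B, with log2 folds from -0.60 to -0.42 and adjusted p up to 0.216.

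The level of daz-1 was 79.4, 76.5 and 74.5 CPM in the deletion IP and a scattered 35.1, 43.3 and 74.8 CPM in its input, where the counts were 9, 9 and 20. The groups overlapped. Its log2 fold was 0.56 ± 0.23 (edgeR adjusted p = 0.0343), turned to -0.51 with total counts (adjusted p = 0.0903), and lost its call without any 1 of the deletion IPs or without deletion input A or B (0.45 to 0.59, adjusted p up to 0.188). For cpb-3 the log2 fold was -0.42 ± 0.19 (edgeR adjusted p = 0.0523) on the TMM scale, -1.50 with total counts and 0.37 with all counted reads. It was not called on the TMM scale, though its IP and input libraries did not overlap, and without deletion IP A, B or C it was called, at -0.55, -0.44 and -0.53.

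Here too puf-5 and glp-1 stood higher in the IP on the TMM scale. For puf-5 the levels were 55.4, 51.2 and 53.9 CPM against 23.4, 19.3 and 18.7 CPM, with a log2 fold of 1.38 ± 0.32 (edgeR adjusted p = 1.14e-04), or 0.31 with total counts (adjusted p = 0.496). For glp-1 they were 84.5, 100.6 and 90.7 CPM against 35.1, 67.4 and 37.4 CPM, with a log2 fold of 1.02 ± 0.24 (edgeR adjusted p = 1.19e-04) that became -0.06 with total counts. Of the 7 genes, 3 were called higher, against 32.9% of all features, and 3 lower, against 21.2%. With total counts the split was 0 higher and 4 lower, against 12.8% and 37.1%.

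**Figure D2:**
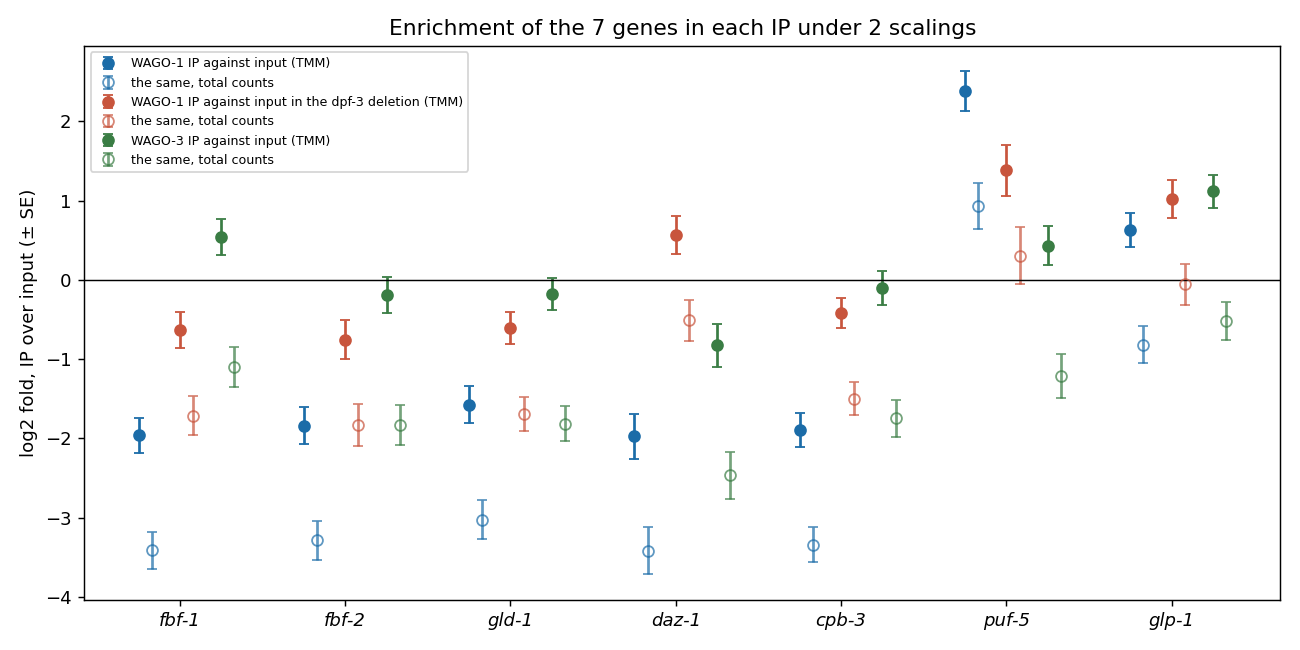
Log2 fold of IP over input (vertical axis, ± SE) of each gene in WAGO-1, WAGO-1 with the dpf-3 deletion and WAGO-3; filled points use TMM scaling and open points total counts. Between scalings all points of a comparison shift by a like amount, so 5 genes stay far below puf-5 in the WAGO-1 IP while the sign for glp-1 turns in all 3 comparisons, and that for daz-1 in the deletion, for fbf-1 and puf-5 in WAGO-3.

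The change of enrichment between the genotypes was tested as a difference of log2 folds in 1 model. It was 2.54 ± 0.36 for daz-1 (edgeR adjusted p = 4.41e-08), from -1.97 with dpf-3 intact to 0.56 in the deletion. For cpb-3 it was 1.47 ± 0.27 (edgeR adjusted p = 4.79e-05) and for fbf-1 1.33 ± 0.30 (edgeR adjusted p = 0.00199). These 3 were called in each of 9 other settings and each of the 12 fits without 1 library. Their size moved with the setting: without 1 of the WAGO-1 IPs it reached 3.29 for daz-1, 2.17 for cpb-3 and 2.08 for fbf-1, and with all counted reads 3.58, 2.52 and 2.37. The median of all features moved too, from 0.09 to between -0.08 and 0.78 in the fits without 1 library and to 1.14 with all counted reads. For the 5 genes that were low in the WAGO-1 IP, the difference was positive in every setting tried.

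The remaining changes of enrichment were less firm. For fbf-2 the difference was 1.08 ± 0.31 (edgeR adjusted p = 0.0401), and the call was lost without WAGO-1 input B (1.19, adjusted p = 0.0711), without deletion IP A, B or C (0.88 to 0.97) or without deletion input B (1.08, 0.074). For gld-1 it was 0.97 ± 0.29 (edgeR adjusted p = 0.0521), just outside the threshold, and it was called in the 8 other settings, at 1.33 with total counts (adjusted p = 5.42e-04), and without any 1 of 8 of the 12 libraries (all but WAGO-1 input B and the 3 deletion IPs). For puf-5 it was -0.997 ± 0.50 (edgeR adjusted p = 0.415), with a 95% interval, not adjusted for the number of features, from -1.98 to -0.01. It turned to 0.06 with all counted reads. For glp-1 it was 0.39 ± 0.34 (edgeR adjusted p = 0.723), and it was called without WAGO-1 IP A (1.07), B (1.10) or C (1.02), with all counted reads as the library size (1.44, adjusted p = 4.30e-04) and when only the 4 groups were fitted (1.15, adjusted p = 0.00904). Of the 7 genes, 4 were called higher, against 1.55% of all features, and none lower, against 0.661%. With total counts 5 were called higher, against 7.4%, and none lower, against 0.378%. The share of all features moved with the fit: 3862 of 11648 were called higher with all counted reads. Without 1 library 3 to 6 of the 7 genes were called higher, beside 99 to 2117 of the 8425 to 14482 features tested.

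**Figure D3:**
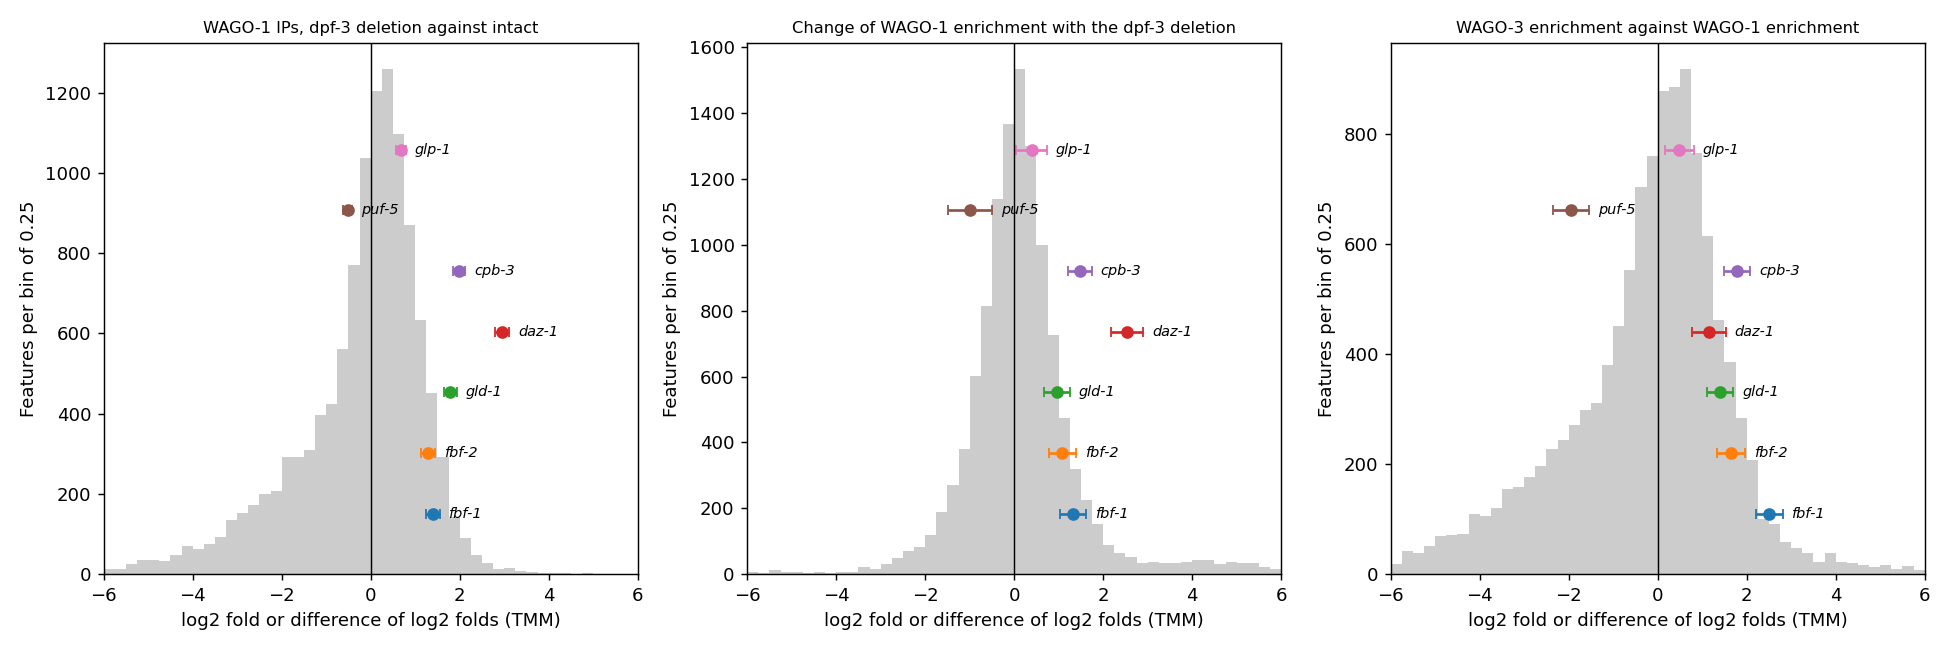
Log2 folds or differences of log2 folds (TMM, horizontal axis, ± SE as whiskers) of the 7 genes over a histogram of the tested features (vertical axis, features per bin of 0.25; values beyond the axis are not drawn); the height of the coloured points carries no value. Between the WAGO-1 IPs daz-1 lies at 2.95 and puf-5 at -0.51 (0.63 with total counts); in the middle panel daz-1 lies at 2.54, and in the right panel fbf-1 lies at 2.50 and puf-5 at -1.95.

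WAGO-3 was examined in the same way. For the stem cell repressors, gld-1 and cpb-3, its IP overlapped its input. For fbf-1 the levels were 76.4, 69.7 and 67.6 CPM against 37.0, 42.8 and 69.6 CPM, with a log2 fold of 0.54 ± 0.22 (edgeR adjusted p = 0.0280) that turned to -1.10 with total counts (adjusted p = 6.29e-05) and to -0.04 when only these 2 groups were fitted. It lost its call without any 1 of the WAGO-3 IPs or without WAGO-3 input A or B, with log2 folds of 0.38 to 0.50. For fbf-2 the log2 fold was -0.19 ± 0.23 (95% interval -0.64 to 0.26), for gld-1 -0.17 ± 0.20 (-0.57 to 0.22) and for cpb-3 -0.10 ± 0.21 (-0.52 to 0.31), none of them called on the TMM scale. With total counts these 3 were called lower, at -1.83, -1.82 and -1.75.

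For daz-1 the WAGO-3 IPs held 23.95, 29.9 and 25.6 CPM and the inputs 47.0, 45.3 and 49.7 CPM, a log2 fold of -0.82 ± 0.27 (edgeR adjusted p = 0.00584) that was negative and called in all 8 other settings. It was the 1 gene of the 7 called lower on the TMM scale. For puf-5 the log2 fold was 0.43 ± 0.25 (edgeR adjusted p = 0.123), not called, and -1.21 with total counts. For glp-1 the levels were 104.2, 103.3 and 106.6 CPM against 40.3, 57.9 and 43.1 CPM, with a log2 fold of 1.12 ± 0.21 (edgeR adjusted p = 1.71e-06) that became -0.52 with total counts (adjusted p = 0.0483). In counts 2 genes were higher, against 34.8% of all features, and 1 lower, against 26.8%, and with total counts 0 and 7, against 10.1% and 52.2%.

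The 2 Argonautes were compared by the difference between their log2 folds of IP over input. It was 2.50 ± 0.30 for fbf-1 (edgeR adjusted p = 4.75e-12), 1.65 ± 0.32 for fbf-2 (9.10e-06), 1.40 ± 0.30 for gld-1 (6.65e-05) and 1.79 ± 0.29 for cpb-3 (1.33e-07). These 4 genes stood higher in the WAGO-3 IP, relative to input, than in the WAGO-1 IP, and were called so in all 8 other settings and all 12 fits without 1 library. For daz-1 it was 1.15 ± 0.37 (edgeR adjusted p = 0.0127), a call lost without WAGO-1 input B (0.95, adjusted p = 0.129). For puf-5 it was -1.95 ± 0.40 (edgeR adjusted p = 3.54e-05), and it too was called in all of these fits. For glp-1 it was 0.49 ± 0.32 (edgeR adjusted p = 0.263; 95% interval -0.13 to 1.11) and was called without any 1 WAGO-1 IP (0.81 to 0.91) or WAGO-3 IP (0.86 to 0.87). Thus 5 genes were called higher, against 12.5% of all features, and 1 lower, against 15%, the same counts as with total counts, where the background was 9.69% and 17.3%. This difference and the change with the dpf-3 deletion share the WAGO-1 libraries. Side by side, daz-1 had 2.54 with the deletion and 1.15 for WAGO-3, and fbf-1 had 1.33 and 2.50.

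Between the WAGO-3 and WAGO-1 inputs only puf-5 was called. Its levels were 40.3, 40.3 and 33.1 CPM in the WAGO-3 input and 13.6, 14.9 and 14.9 CPM in the WAGO-1 input, without overlap, on 12, 16 and 10 reads against 4, 10 and 7. The log2 fold was 1.37 ± 0.38 (edgeR adjusted p = 0.00396), and without WAGO-3 input B it was 1.28 and not called (adjusted p = 0.0575). The lower puf-5 value of the WAGO-3 enrichment thus goes with a higher WAGO-3 input as well as a lower IP (22.6 ± 2.22 against 37.3 ± 2.97 CPM scaled by total counts). Of the 7 genes 1 was called higher, against 5.73% of all features, and none lower, against 8.01%, and the counts were alike with total counts, against 5.97% and 7.87%.

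The make-up of the reads of the 7 genes does not depend on the scaling. In the WAGO-1 input puf-5 took 4.33 ± 0.658% of them (mean ± SD, n = 3) and in the WAGO-1 IP 36.2 ± 2.13%. In the deletion IP and the WAGO-3 IP its share was 12.1 ± 0.420% and 12.1 ± 0.672%, and in their inputs 4.63 ± 0.887% and 10.2 ± 1.85%. The puf-5 share thus stood apart in the WAGO-1 IP, and so did the ratio of puf-5 to gld-1 reads, at 6.59, 4.35 and 3.55 there, 0.893, 0.862 and 0.883 in the deletion IP and 0.818, 0.776 and 0.753 in the WAGO-3 IP. These ratios did not overlap between any of the IP groups.

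The share of daz-1 was 4.80 ± 1.04% in the WAGO-1 IP, 17.3 ± 0.506% in the deletion IP and 6.16 ± 0.890% in the WAGO-3 IP, against 11.3 ± 2.32%, 11.2 ± 3.52% and 12.8 ± 1.63% in the inputs. Among the IPs, the deletion group was thus the one whose mean daz-1 share exceeded that of its input. There were 1.28, 1.29 and 1.22 daz-1 reads per gld-1 read in the deletion IP, against 0.374, 0.490 and 0.342 in the WAGO-3 IP. For glp-1 the share was 26.9 ± 0.281%, 20.8 ± 1.94% and 24.3 ± 0.456% in the 3 IPs and 10.5 ± 2.00%, 10.6 ± 4.61% and 12.5 ± 1.47% in the inputs. Its mean share in each IP exceeded that of the matching input. There were 1.39, 1.53 and 1.35 fbf-1 reads per fbf-2 read in the WAGO-3 IP, all above the 1.05, 0.941 and 1.29 of the WAGO-1 IP. The inputs were more scattered, at 0.964 ± 0.564 in WAGO-3 and 1.17 ± 0.0790 in WAGO-1.

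**Figure D4:**
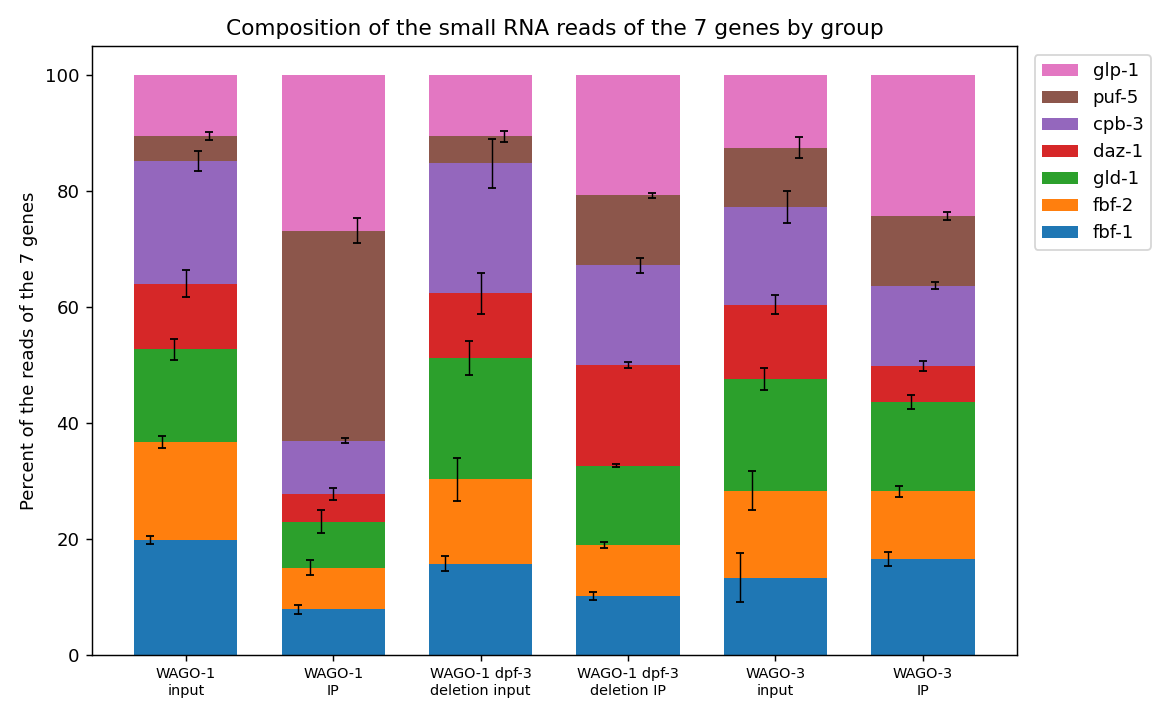
Mean percent of the reads of the 7 genes that each gene took (vertical axis) in the 6 groups (horizontal axis), stacked; whiskers at the top of each segment but the last are the SD of that gene's share (n = 3 libraries). In the WAGO-1 IP puf-5 takes 36.2% against 4.33% in its input, and in the deletion IP daz-1 takes 17.3% against 4.80% in the WAGO-1 IP.

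Per length of gene span, introns included, and scaled by total counts, puf-5 led in the WAGO-1 IP, at 16.6 reads per kilobase against 2.13 (daz-1) to 3.71 (glp-1) for the others. In the deletion IP daz-1 led, at 35.6, followed by cpb-3 at 26.1, gld-1 at 25.5 and puf-5 at 25.4, and glp-1 was lowest at 13.2. In the WAGO-3 IP fbf-1 led at 11.98, followed by gld-1 at 11.4, and daz-1 was lowest at 4.99. In the WAGO-1 input fbf-1 led at 34.8, and puf-5 and glp-1 were lowest at 8.62 and 6.44. In the deletion input and the WAGO-3 input gld-1 led, at 82.0 and 38.5. The order of the genes per length thus differed between the 3 IPs, and the leading gene differed between the inputs too.

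Over the 18 libraries, log2(CPM + 1) of fbf-1, fbf-2, gld-1, daz-1 and cpb-3 correlated positively in all 10 pairs, with Pearson r of 0.628 to 0.917 and Spearman rho of 0.168 to 0.686. Correlations of puf-5 with these 5 genes were negative, with r from -0.683 to -0.431, and those of glp-1 ran from -0.209 to 0.0375 in r and from -0.461 to 0.0279 in Spearman rho, lowest with fbf-2. These are descriptions: the libraries fall into 6 groups, and the genes share each library's scaling and depth. Among 3926 other genes with a mean of at least 20 CPM, the pattern nearest to that of gld-1 was that of gcn-2 (r = 0.971), followed by Y71F9AL.9 (0.967) and htp-1 (0.962). The nearest to daz-1 was hsp-1 (0.941), to cpb-3 nap-1 (0.952) and to puf-5 madf-5 (0.953). For fbf-1 it was ruvb-1 (0.931), for fbf-2 plk-1 (0.949), with pgl-3 also near (0.942), and for glp-1 epg-5 (0.958).

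The relatives of the 7 genes were read from lists by family and pathway, chosen with earlier results of these data known. Of 10 PUF genes tested, which include fbf-1, fbf-2 and puf-5, 4 were higher in the WAGO-1 IP against input and 5 lower (3 and 6 with total counts), beside 43.2% and 24.9% of all features (12.2% and 48.9%). Like puf-5, puf-9 (1.903 ± 0.14 log2) and puf-7 (1.82 ± 0.14) were higher, and puf-8, a PUF gene that acts in germline proliferation, was lower like the fbf genes (-2.50 ± 0.32; edgeR adjusted p = 1.21e-11). Reads of puf-6 and puf-7, near-identical copies, may be split between them. Between the WAGO-1 IPs 8 PUF genes were higher in the deletion and 2 lower (9 and 1 with total counts), beside 30.6% and 31.8% of all features (69.4% and 16.9%), with a median log2 fold of 1.18, puf-8 at 2.79 ± 0.20 and puf-9 at -2.21 ± 0.09. For puf-9 the log2 fold was negative also with total counts, at -1.07. The change of enrichment was called higher for fbf-1, fbf-2 and puf-8 (1.68 ± 0.38, edgeR adjusted p = 0.00207), where 1.55% of all features were (7.4% with total counts).

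Of the 4 CPEB genes, cpb-3 was the 1 called between the WAGO-1 IPs on the TMM scale. Its paralogues cpb-1, cpb-2 and fog-1 had log2 folds of 0.00, -0.03 and -0.16 there, and with total counts all 4 genes were higher. Of all features, 30.6% were called higher and 31.8% lower in that comparison (69.4% and 16.9% with total counts). In the WAGO-1 IP against its input, cpb-1, which acts in spermatogenesis, was higher (1.52 ± 0.18, edgeR adjusted p = 1.83e-13) on the TMM scale and at 0.07 with total counts. The WAGO-3 enrichment was lower than that of WAGO-1 for cpb-2 (-2.87 ± 0.50, edgeR adjusted p = 9.77e-07), opposite to cpb-3.

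Among 24 tested partners and targets of the FBF, GLD and DAZ-1 proteins, 16 were higher in the deletion IP than in the WAGO-1 IP and 2 lower (23 and 0 with total counts), where 30.6% and 31.8% of all features were (69.4% and 16.9%), with a median log2 fold of 0.72. The smallest p was that of larp-1, which encodes an RNA-binding La-related protein, at 4.98 ± 0.11 log2 (edgeR adjusted p = 8.01e-78). It was followed by let-711, the scaffold of the CCR4-NOT deadenylase complex, at 2.78 ± 0.10, and by gls-1, a partner of GLD-3, at 1.53 ± 0.13. The change of enrichment was called higher for larp-1 (3.19 ± 0.23), let-711 (1.72 ± 0.21) and dlc-1 (2.35 ± 0.68), a dynein light chain that binds FBF-2, and lower for mog-1 (-0.79 ± 0.23, edgeR adjusted p = 0.0401, or -0.41 and not called with total counts). Thus 3 were called higher and 1 lower (6 and 0 with total counts), where 1.55% and 0.661% of all features were (7.4% and 0.378%). For WAGO-3 against WAGO-1, 4 of the 24 partners were called higher and none lower (3 and 2 with total counts), where 12.5% and 15% of all features were (9.69% and 17.3%), with ccf-1, a deadenylase subunit, at 3.32 ± 0.42.

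Of 19 tested genes of the Notch pathway around glp-1, 8 were higher in the deletion IP and 4 lower (15 and 3 with total counts), beside the same shares of all features, 30.6% and 31.8% (69.4% and 16.9%), with a median log2 fold of 0.36. The ligand gene arg-1 (-2.31 ± 0.10), the protease gene adm-4 (-2.85 ± 0.09) and epn-1 (-2.50 ± 0.13), an epsin, were lower under both scalings. The gene ego-1, for an RNA-dependent RNA polymerase whose loss enhances glp-1 phenotypes, was higher (2.02 ± 0.12). Its enrichment changed with the deletion by 1.11 ± 0.23 (edgeR adjusted p = 5.06e-04). The difference between ego-1 and glp-1 was not tested. Of 15 other RNA-binding genes of the oocyte, 8 were higher in the deletion IP and 1 lower (15 and 0 with total counts), with a median of 0.55 and the smallest p for car-1 (1.80 ± 0.12). In the WAGO-1 IP against its input 1 was higher and 9 lower (0 and 12), beside 43.2% and 24.9% of all features (12.2% and 48.9%).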

How the data were processed

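Small RNA libraries of 18 samples were analysed from the deposited table of read counts, whose values are whole numbers with unequal totals. Per the submitters' processing notes, the tools included cutadapt 2.3, Bowtie 1.2.3, SAMtools 1.9 and HTSeq 0.11.2, with genome build ce11. The handling of reads with several matches and of strand is not given in the sources used here, and it could move reads between fbf-1 and fbf-2. Columns were matched to libraries by title. No row for reads without a feature entered library sizes or tests: these rows held 32.5% to 38.6% of counted reads in IPs and 68.6% to 82.4% in inputs, and ambiguous reads at most 0.176%. By a chi-square test over features, every pair of replicates differed beyond sampling noise (p at most 0.0192). Deviations from group means correlated above 0.1 in all 3 same-letter pairs of the WAGO-1 IP and the deletion IP (r of 0.192 to 0.537), and in none of the 18 other pairs. WAGO-1 IP C correlated most with deletion IP B. The deviations within a group depend on each other, so a pairing of B and C by letter was not shown.

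In R 4.3.3, edgeR 4.0.16 fitted 1 quasi-likelihood model (glmQLFit, glmQLFTest) with a mean for each of 6 groups to features passing filterByExpr at a minimum count of 10, with TMM scaling. Benjamini-Hochberg adjustment ran over all 11648 features, and a call is an adjusted p under 0.05. The code was tested on simulated data. Alternatives were total counts, median-of-ratios scaling, all counted reads, no filter, genes only, DESeq2 1.42.0, fits of the compared groups only, a replicate block and fits without 1 library. A fit without library A of both WAGO-1 IP groups and a blocked fit of those groups alone were chosen after seeing the data. Gene spans came from RefSeq. In likeness, genes under a mean of 20 CPM were left out and the pseudocount was 1. For each list, the counts called and up to 3 genes of smallest p are named. The genes, lists and markers were chosen with earlier results of these data known. Counts of few reads carry counting error, and no sequence is shown.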

Additional observations from a re-analysis of the deposited data

Results flagged for a closer look

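Effects that differed between genotypes by a test of the difference itself were those of fbf-1, fbf-2, daz-1 and cpb-3 under the dpf-3 deletion and of 6 genes between the Argonautes. With the deletion, the log2 fold of WAGO-1 IP over input was higher by 2.54 for daz-1 (edgeR adjusted p = 4.41e-08), by 1.47 for cpb-3 (4.79e-05), by 1.33 for fbf-1 (0.00199) and by 1.08 for fbf-2 (0.0401, lost in 5 of 12 fits without 1 library). In each, the 3 deletion IPs lay above the 3 WAGO-1 IPs, though the share of all features doing so was not counted.

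For WAGO-3 against WAGO-1, the log2 fold was higher by 2.50 for fbf-1 (edgeR adjusted p = 4.75e-12), 1.65 for fbf-2 (9.10e-06), 1.40 for gld-1 (6.65e-05), 1.15 for daz-1 (0.0127) and 1.79 for cpb-3 (1.33e-07), and for puf-5 it differed by -1.95 (3.54e-05). These differences kept their sign with total counts per library. Both sets share the WAGO-1 libraries. Of 77 genes for ribosomal proteins, 9 had a change of enrichment called higher with the deletion and 0 lower (24 and 0 with total counts). Of all features, 1.55% and 0.661% did (7.4% and 0.378%), shares that belong to these scalings alone. The median of the ribosomal genes was 1.03, beside a median of 1.08 for the 7 genes. For WAGO-3 against WAGO-1, 10 of the 77 were higher and 2 lower (7 and 4), with a median of 0.38, beside 12.5% and 15% of all features (9.69% and 17.3%). The part of these genes in the values above was not tested.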

How the results depend on the processing

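Beside the TMM fit, 8 other settings and the fits without 1 library each were run for every gene and comparison, except that puf-5 had no value between the WAGO-1 inputs when those groups were fitted alone. With 2 alternatives chosen after seeing the data, of 489 single-gene results 408 kept their direction and their side of the threshold, 29 turned direction, 35 became called and 17 lost a call; of 420 without 1 library, the numbers were 353, 13, 20 and 34. The cause of these changes was not tested. The lower values of fbf-1, fbf-2, gld-1, daz-1 and cpb-3 in the WAGO-1 IP against input, their higher values in the deletion IP against the WAGO-1 IP, and the puf-5 rise in the WAGO-1 IP against input held under all of them.

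With total counts per library, WAGO-1 IP against input had 1 of the 7 genes called higher (2 with TMM), the deletion IP against its input 0 (3 with TMM), and WAGO-3 IP against input 0 higher and 7 lower (2 and 1 with TMM); 0 were lower between the WAGO-1 IPs (1 with TMM) and 7 higher between the WAGO-1 inputs (1 with TMM). Under this scaling glp-1 turned to -0.82, -0.0559 and -0.52 in the IPs of WAGO-1, the deletion and WAGO-3, daz-1 to -0.51 in the deletion IP, fbf-1 to -1.10 and puf-5 to -1.21 in the WAGO-3 IP, and puf-5 to 0.63 between the WAGO-1 IPs. With all counted reads as the library size, the counts were 1 higher in WAGO-1 IP against input, 0 lower in the deletion IP against input, 1 higher and 4 lower for WAGO-3, 0 lower between WAGO-1 IPs and 2 higher between their inputs. There fbf-1 (0.15), fbf-2 (0.0349), gld-1 (0.18) and cpb-3 (0.37) turned in the deletion IP, puf-5 turned in the WAGO-3 IP (-0.0186), between WAGO-1 IPs (0.75) and in the change of enrichment (0.0552).

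With median-of-ratios scaling and with DESeq2, 1 gene was higher in the WAGO-3 IP, and fbf-1 between WAGO-1 inputs turned to -0.10 and fbf-2 between the WAGO-3 and WAGO-1 inputs to -0.0748 and -0.0767. With no filter, 1 gene was higher in each of the WAGO-1 and WAGO-3 IPs, and 0 were lower in the deletion IP against input, lower between WAGO-1 IPs, or higher in either input comparison; fbf-1 and fbf-2 turned to -0.18 and -0.0401 between WAGO-1 inputs and fbf-2 to -0.13 between WAGO-3 and WAGO-1 inputs. With genes only, 0 genes were higher between WAGO-1 inputs, fbf-1 was at -0.15 and fbf-2 at -0.00890 there, fbf-2 at -0.12 between WAGO-3 and WAGO-1 inputs and cpb-3 at 0.0675 in the WAGO-3 IP. With a fit of the compared groups only, WAGO-1 had 1 higher and WAGO-3 1 higher and 4 lower, glp-1 was at -0.10 in the WAGO-1 IP, fbf-1 and puf-5 at -0.0374 and -0.15 in the WAGO-3 IP and fbf-2 at -0.0758 between the WAGO-3 and WAGO-1 inputs.

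Without 1 library, genes called higher ranged from 1 to 2 in the WAGO-1 IP, 1 to 2 in the WAGO-3 IP, 0 to 1 in both input comparisons, 3 to 6 in the change of enrichment and 4 to 6 for WAGO-3 against WAGO-1 enrichment, and genes called lower from 0 to 1 between WAGO-1 IPs and 0 to 4 in the deletion IP against input. Ranges that crossed 0 were -0.63 to 0.00608 (puf-5 between WAGO-1 IPs), -0.0847 to 0.0800, -0.0726 to 0.62 and -0.0777 to 0.54 (fbf-1, daz-1 and glp-1 between WAGO-1 inputs), -0.37 to 0.0761, -0.35 to 0.0858 and -0.24 to 0.0755 (fbf-2, gld-1 and cpb-3 in the WAGO-3 IP), and -0.22 to 0.14 (fbf-2 between WAGO-3 and WAGO-1 inputs).

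Without library A of both WAGO-1 IP groups, 1 gene was higher in WAGO-1 IP against input and 0 lower between the WAGO-1 IPs. Over all features, the numbers higher were then 2862 in the WAGO-1 IP, 2142 in the change of enrichment (34 lower) and 2348 for WAGO-3 against WAGO-1 enrichment, with 1051 lower there and 1872 lower between the WAGO-1 IPs. Letters were taken to pair the libraries of the WAGO-1 IP and the deletion IP alone, which was not shown for B and C. A replicate block by letter changed none of the counts of called genes by over 1.5 times and brought gld-1 past the threshold in the change of enrichment (0.97, edgeR adjusted p = 0.0473). Over all features, the number with a change of enrichment called higher was 181, and 862 with total counts, 3862 with all counted reads, 814 with no filter, 2402 with the compared groups only and 99 to 2117 without 1 library; the number called lower was 77, and 44, 20, 21, 30 and 30 to 134. Total counts moved the numbers higher and lower from 5037 and 2895 to 1425 and 5696 in WAGO-1 IP against input, from 3829 and 2465 to 1487 and 4320 in the deletion IP against input, from 4051 and 3120 to 1177 and 6085 for WAGO-3, from 3559 and 3709 to 8081 and 1964 between the WAGO-1 IPs, and from 1007 to 3413 higher between their inputs. All counted reads gave 5769 and 1264 in the deletion IP, 8357 and 1824 between the WAGO-1 IPs and 1546 higher between their inputs. No filter gave 1636 lower in the deletion IP, 266 higher between WAGO-1 inputs and 386 higher (667 with TMM) between the WAGO-3 and WAGO-1 inputs. Genes only gave 510 higher and 1037 lower (1734 with TMM) between WAGO-1 inputs and 415 and 533 (933 lower with TMM) between the WAGO-3 and WAGO-1 inputs. The compared groups alone gave 2986 higher for WAGO-1, 2636 higher for WAGO-3, 994 lower between WAGO-1 inputs and 2545 higher (1451 with TMM) for WAGO-3 against WAGO-1 enrichment. Without 1 library, the lowest and highest were 2997 and 5252 higher in the WAGO-1 IP, 1941 and 2752 lower between the WAGO-1 IPs, 559 and 726 higher between their inputs, and 1176 and 2430 higher and 1056 and 1685 lower for WAGO-3 against WAGO-1 enrichment. Input counts of 4 to 50 reads a gene limit every value that rests on an input.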

Other observations

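Marker genes of other tissues gave small RNA counts in the same libraries. Between the WAGO-1 IPs, 2 of 11 spermatogenesis genes tested were higher in the deletion and 3 lower (8 and 1 with total counts), where 30.6% and 31.8% of all features were (69.4% and 16.9%). On the TMM scale their summed level was 258 to 269 CPM in the WAGO-1 IP and 110 to 116 CPM in the deletion IP. With total counts it was 126 to 132 and 119 to 125 CPM. Of 6 neuron genes tested, 5 were higher and 1 lower (6 and 0). Of 6 muscle genes, 2 passed the filter and both were lower on the TMM scale (1 higher and 0 lower with total counts). Of 4 intestine genes tested, 1 was lower and none higher (0 lower and 3 higher with total counts), and the summed level of all 7 listed was 2.59 to 4.10 CPM in the WAGO-3 IP against 33.1 to 47.0 CPM in its input.

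In the WAGO-1 IP against its input, 2 of the 11 spermatogenesis genes were higher and 8 lower on the TMM scale and 0 and 11 with total counts, where 43.2% and 24.9% of all features were (12.2% and 48.9%). The unnamed intervals of the table that lie inside the span of glp-1, 3 in number, held 0 reads in all groups.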
